A study of Homo sapiens with 6 samples.

Results

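Zinc finger genes of chromosome 19 were examined in SK-MEL-28, a human cutaneous melanoma cell line. Members were the protein-coding genes with the symbol ZNF and a number that lie on chromosome 19, found by matching the gene IDs of the deposited table to the GENCODE annotation on GRCh37. The annotation holds 240 such genes, and 179 of them were among the 13449 genes of the table. The cells had been transfected with an siRNA against the long non-coding RNA DANCR (siDANCR, 3 libraries) or with a non-targeting control siRNA (control, 3 libraries), and polyadenylated RNA was sequenced from cells harvested 3 days later. Both groups are the same unmodified line, so all 6 libraries share the transfection itself, and nothing in the labels says whether the replicates were separate cultures. The deposited values used here are the authors' mean normalised counts, 1 value per gene taken over all 6 libraries together. They describe how strongly each gene was expressed across the experiment. They give no value for siDANCR cells apart from control cells and no spread between libraries, so no difference between siDANCR and control is reported for any member, the fall of DANCR itself could not be checked, and no test was run.

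Most zinc finger proteins of this family bind DNA through a row of C2H2 fingers, short loops in which a pair of cysteines and a pair of histidines hold a zinc ion, joined by a conserved linker. Many also carry a KRAB box at their start, which recruits the scaffold protein TRIM28 and, through it, the histone methyltransferase SETDB1 and heterochromatin proteins. Their best known targets are retrotransposons. The genes arose by repeated tandem duplication and stand in dense clusters on chromosome 19.

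The finger and its linker are shown first because their repetition defines the family at the DNA level. Each line is the coding strand of the first finger with 12 residues between its inner cysteine and histidine that is followed directly by a linker, from the first cysteine codon to the end of the linker. Capitals mark the codons of the zinc-binding cysteines and histidines. ZNF787 and ZNF146 are the members with the highest levels, ZNF675 has the highest level per kb of canonical transcript in the cluster that also holds ZNF91 and ZNF430, and ZNF208 is the lowest member of all.
ZNF787 (chr19:56600262-56600339, GRCh37, minus strand): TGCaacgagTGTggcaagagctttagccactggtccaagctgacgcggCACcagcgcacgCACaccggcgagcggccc
ZNF146 (chr19:36727562-36727639, GRCh37, plus strand): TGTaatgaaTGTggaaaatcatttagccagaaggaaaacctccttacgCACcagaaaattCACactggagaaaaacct
ZNF675 (chr19:23836886-23836963, GRCh37, minus strand): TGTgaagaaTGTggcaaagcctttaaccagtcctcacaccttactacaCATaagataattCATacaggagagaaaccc
ZNF91 (chr19:23544902-23544979, GRCh37, minus strand): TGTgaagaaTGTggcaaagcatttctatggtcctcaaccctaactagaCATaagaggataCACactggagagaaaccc
ZNF430 (chr19:21239817-21239894, GRCh37, plus strand): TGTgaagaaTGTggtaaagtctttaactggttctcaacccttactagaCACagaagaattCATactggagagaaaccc
ZNF208 (chr19:22156984-22157061, GRCh37, minus strand): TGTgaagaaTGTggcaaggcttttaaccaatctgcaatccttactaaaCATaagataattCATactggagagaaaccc
The units of ZNF675 and ZNF208 were identical at 69 of 78 bases and those of ZNF430 and ZNF91 at 64 of 78. The unit of ZNF787 matched that of ZNF146 at 45 of 78 bases. GC content was 66.7% in the ZNF787 unit, 38.5% in that of ZNF146 and 37.2% in that of ZNF208.

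The linker was often repeated. The 176 listed members whose coding sequence could be read held 1177 linkers, spelled in 186 ways at the DNA level. The commonest spelling, actggagagaaaccc, made up 18.4% of them and was found in 64 members. The next, actggagagaaacct, differed from it in the last base of the last codon and was found in 51 members. The median listed member had 12 fingers (quartiles 9 and 15). ZNF428 had the fewest, 1, and ZNF208 the most, 36.

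Chromosome 19 ZNF genes were listed often but at low levels. Of the 240 members 74.6% were in the table, against 56.4% of the 19935 other protein-coding genes and 50.5% of the 1240 other protein-coding genes of chromosome 19. The table holds no gene with a mean under 23.1 normalised counts, so the 61 members that are not listed have no value here. Whether they fell below that level was not tested. Genes were matched by ID, and 288 IDs of the table had no match in the annotation. A gene recorded in the table under another ID would also count as not listed, here and below, and this was not tested. The median listed member had a mean of 102.4 normalised counts, against 398.6 for other listed protein-coding genes. Together the members made up 1.33% of the genes of the table and 0.210% of its summed mean counts. A long transcript collects more reads, so levels between genes are given below as the mean normalised count per kb of canonical transcript. On that scale the median was 26.4 for the 177 members with a canonical transcript (quartiles 14.9 and 50.2). It was 120.5 for the 11199 other listed protein-coding genes with a canonical transcript (quartiles 49.8 and 276.8). Where the median of other protein-coding genes is named below, it is this median over listed genes. With 74.6% of members and 56.4% of other genes listed, these medians cover unequal shares of the annotated genes.

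The position of the members changed with the level asked for. A level of at least 10 per kb was reached by 65.4% of annotated members and 54.0% of other protein-coding genes. A level of at least 100 per kb was reached by 7.5% of members, or 18 genes, and 31.4% of other protein-coding genes. ZNF genes of other chromosomes, the most similar set, were listed more often than the members and had a median level between theirs and that of the other genes. Of these 236 genes 80.9% were listed, their median level was 63.4 per kb, and 25% reached 100 per kb. Each gene has a single value and genes are not replicates, so these differences are described and not tested.

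**Figure D1:**
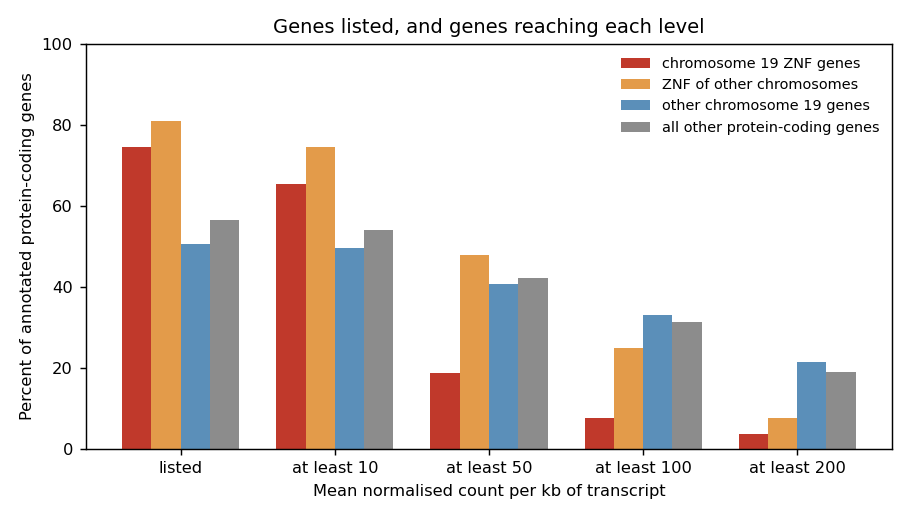
Percent of annotated protein-coding genes (vertical axis) that were listed in the table or reached a given mean normalised count per kb of transcript (horizontal axis), for chromosome 19 ZNF genes, ZNF genes of other chromosomes, other chromosome 19 genes and all other protein-coding genes. Chromosome 19 ZNF genes exceed all other protein-coding genes among listed genes (74.6% against 56.4%) and fall under them from 50 per kb upwards (18.8% against 42.1%).

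Of the 177 members 164 lay below the median level of other listed protein-coding genes, and 63 lay below percentile 10 of those genes. ZNF787 was the only member above percentile 90. Transcripts of the members are poor in GC, with a median of 42.4% against 47.9% for other listed protein-coding genes, and both low GC content and a low mean count go with the family. The low level was therefore also read within 10 bins of transcript GC content holding equal numbers of other genes, and 163 of the 177 members lay below the median of other genes in their own bin. In the bin with the lowest GC content the median was 28.2 per kb for 29 members and 91.1 per kb for 1120 other genes, and all 29 members lay below. In the bin with the highest GC content it was 135.1 per kb for 16 members and 148.0 per kb for 1120 other genes, and 8 of the 16 lay below. When genes with means under 100 normalised counts were left out on both sides, 83 of 94 members lay below the median of the others.

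The strongest members were mostly GC-rich genes without a detectable KRAB box. ZNF787 (ENSG00000142409, chromosome 19, 56598732 to 56632664, GRCh37) had the highest level, 613.4 per kb, at a mean of 1192 normalised counts and a transcript GC content of 70.4%. ZNF146 (ENSG00000167635, chromosome 19, 36705504 to 36729673), which encodes a protein made almost wholly of fingers, followed at 509.9 per kb and had the highest mean of all members, 1707 normalised counts. It had the lowest GC content of the 10 highest members, 38.9%. No other member had a mean of 1000 normalised counts or more.

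ZNF580 stood at 451.3 per kb and ZNF444, which carries a SCAN domain for pairing with other such proteins, at 330.2 per kb. Per kb of its longest transcript ZNF444 stood at 115.3, outside the 10 highest on that scale. ZNF428 stood at 312.6 per kb, ZNF358 at 280.0 per kb, ZNF581 at 235.8 per kb, ZNF579 at 216.1 per kb and ZNF865 at 211.6 per kb. ZNF317 closed the 10 highest at 186.2 per kb and was the only one of them in which the KRAB box was found. ZNF580 and ZNF581 overlap on the same strand, also with CCDC106, so how reads were divided among these genes is uncertain. ZNF43 and ZNF714 have no canonical transcript on GRCh37 and therefore no level per kb, and their means were 618.3 and 300.8 normalised counts.

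The 10 lowest levels lay between 3.71 and 7.31 per kb, with means of 26.6 to 50.9 normalised counts, near the lower end of the table. ZNF208, which has the longest row of fingers, was the lowest at 3.71 per kb. It was followed by ZNF490 at 4.55 per kb, ZNF813 at 5.26 per kb, ZNF583 at 5.49 per kb and ZNF66 at 5.86 per kb. The others were ZNF555 at 5.99 per kb, ZNF527 at 6.11 per kb, ZNF550 at 6.21 per kb, ZNF846 at 6.26 per kb and ZNF83 at 7.31 per kb. All 10 had a transcript GC content under 50%, and the KRAB box was found in 8 of them.

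Members in which a KRAB box was found had lower levels than those in which it was not. The box was searched as glutamate and tryptophan followed, after 7 to 11 residues, by a leucine and tyrosine that precede valine and methionine by 2 residues. It was found in 121 of the 176 listed members with a readable coding sequence. Their median level was 24.4 per kb (quartiles 13.9 and 38.2), against 47.2 per kb (quartiles 18.2 and 110.0) in the 55 members in which it was not found. The difference was smaller in mean counts not divided by length, with medians of 99.3 and 132.5 normalised counts. Only ZNF317, of the 121, lay at or above the median of other listed protein-coding genes. The spelling misses divergent boxes, such as that of ZNF224. Accepting a shorter form, chosen after this was seen, gave 133 members with a box at a median of 24.4 per kb and 43 without at 59.3 per kb.

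GC content and the KRAB box could not be separated at the upper end. The box was found in none of the 20 members with a transcript GC content of 60% or more. The 18 of them that were listed had a median of 163.2 per kb. Among members under 50% GC the median was 24.4 per kb for 115 listed members in which the box was found. It was 28.5 per kb for 33 in which it was not found. In the position cluster that holds ZNF224 the box was found in 1 of 17 listed members. The 33 may therefore include members with a divergent box, so these medians do not compare members with and without a box. Pearson's r between GC content and log2 level was 0.46 (Spearman's rho 0.27) over the 177 members and 0.18 (rho 0.13) over the 121 with the box. With the mean count not divided by length rho was 0.12 over the 177 members, and transcript length is part of the per kb scale. These are correlations across genes of the same libraries, many of them related by duplication.

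**Figure D2:**
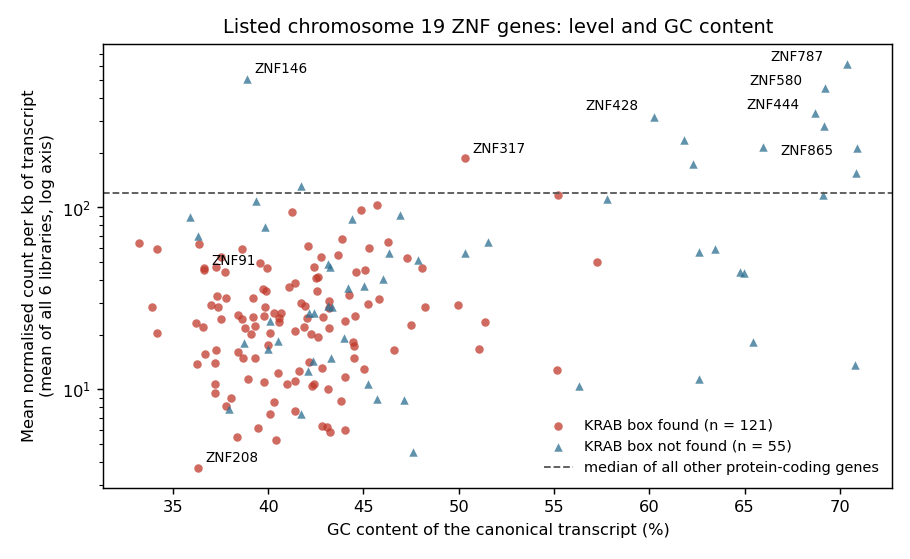
Mean normalised count per kb of transcript (vertical log axis, mean of all 6 libraries) against GC content of the canonical transcript in percent (horizontal axis) for listed chromosome 19 ZNF genes, as circles where the KRAB box was found and triangles where it was not. The dashed line, labelled as all other protein-coding genes, is the median over the listed ones only, 120.5 per kb. All members with the box except ZNF317 lie below the line, and the members above it are mostly GC-rich, with ZNF146 at 38.9% and ZNF700 at 41.7% GC as exceptions.

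The number of fingers went with the level mainly at its lower end. All 9 annotated members with fewer than 5 fingers were listed, with levels of 46.6 to 451.3 per kb and a median of 116.4 per kb. The median was 35.5 per kb for the 39 listed members with 5 to 9 fingers and 22.9 per kb for the 80 with 10 to 14. For the 37 with 15 to 19 it was 26.3 per kb and for the 11 with 20 or more it was 23.5 per kb. Genes with few fingers were also richer in GC (median 62.6%) and shorter, so the part of finger number alone cannot be told apart here.

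Among members with a described role, ZNF274, which binds the ends of other zinc finger genes and brings SETDB1 to them, stood at 86.7 per kb, or 50.2 per kb of its longest transcript. ZNF675, a protein that binds the signalling adaptor TRAF6, stood at 69.9 per kb, or 38.2 per kb of its longest transcript. ZNF331, an imprinted gene, stood at 67.3 per kb. ZNF91 and ZNF93, repressors of retrotransposons, stood at 45.3 and 36.4 per kb. All 5 lay below the median of other listed protein-coding genes and above the median of the members. The described members given next lie on both sides of the median of the members or were not listed.

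ZNF85 stood at 62.8 per kb, ZNF430 at 47.2 per kb and ZNF180 at 23.8 per kb. ZNF649 stood at 29.8 per kb. ZNF350, a partner of BRCA1 in repression, stood at 19.5 per kb. ZNF71 stood at 12.7 per kb, or 8.34 per kb of its longest transcript, and ZNF382, a gene silenced by methylation in several cancers, at 12.6 per kb. ZNF224, described as a repressor of the aldolase A gene, and ZNF808, required for pancreas formation in humans, were not listed.

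RNA levels of genes whose proteins act with KRAB zinc finger proteins, or on their heterochromatin, were spread widely. Of a list of 21 such genes 19 were listed, with a median of 177.0 per kb. The median was 26.4 per kb for the members and 120.5 per kb for other listed protein-coding genes, and 8 of the 19 lay below that last median. TRIM28, itself a gene of chromosome 19, stood at 1331 per kb. The heterochromatin proteins CBX3 and CBX1 stood at 1499 and 814.6 per kb and CBX5 at 115.1 per kb. SETDB1 stood at 60.04 per kb and its partner ATF7IP at 60.4 per kb. TASOR, MPHOSPH8 and PPHLN1, subunits of the HUSH silencing complex, stood at 201.9, 113.9 and 351.5 per kb, and MORC2, which works with HUSH, was the lowest of the list at 24.0 per kb. UHRF1 and DAXX were not matched to any ID of the table, and whether they were present under another ID was not tested. As a check of the cell type, 7 of 8 melanocyte markers were listed at 1219 to 11535 per kb (TYRP1 was not listed). Of 7 markers of leukocytes, fibroblasts, endothelium and keratinocytes only VWF was listed, at 2.75 per kb. PECAM1, planned as a further endothelial marker, was not among the genes read.

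Along the chromosome the members fell into 16 clusters when neighbours at most 1 Mb apart were joined. The 8 clusters with at least 5 listed members, numbered here from the end of the short arm, held 226 annotated and 167 listed members. The share listed was lowest in cluster 2 (11.59 to 12.75 Mb, GRCh37), with 11 of 25 members, or 44%. It was 70.8% to 100% in the other 7 clusters. Members of cluster 2 that were not listed include ZNF20, ZNF69, ZNF443, ZNF563 and ZNF799. ZNF443 and ZNF799 resemble each other closely. Of the 50-base stretches starting at each base of their transcripts, 36.1% and 34.5% also occur in another, non-overlapping gene. The median of this share was 1.87% over 13 members of the cluster that were not listed and 0.436% over the 11 that were. Its part in the missing values was not tested.

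Levels ranged widely within the clusters. Medians of the 8 clusters lay between 16.2 per kb in cluster 5 (36.67 to 38.31 Mb, 19 listed) and 41.6 per kb in cluster 1 (7.07 to 9.90 Mb, 13 listed). Within cluster 5 levels ran from 6.11 per kb for ZNF527 to 509.9 per kb for ZNF146. No other listed member of it lay above the median of other listed protein-coding genes. Cluster 8 (55.99 to 58.99 Mb), with 57 annotated and 45 listed members the largest, ran from 5.49 per kb for ZNF583 to 613.4 per kb for ZNF787 and had a median of 40.5 per kb. It held 6 of the 10 highest members. Cluster 3 (19.78 to 24.31 Mb) had a median of 28.3 per kb and a highest level of 69.9 per kb for ZNF675, over the 27 members with a canonical transcript. This leaves out ZNF43, the member of the cluster with the highest mean count. Per kb of the longest transcript ZNF43 led the cluster at 110.7, above the 103.2 of the median other listed protein-coding gene on that scale. ZNF675 stood at 38.2. Cluster 7 (52.07 to 54.08 Mb) had a highest level of 67.3 per kb for ZNF331 and a median of 21.0 per kb. None of its 28 listed members reached the median of other listed protein-coding genes.

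Cluster 2 was led by ZNF700 at 130.5 per kb, cluster 4 (35.17 to 35.46 Mb, 5 of 5 listed) by ZNF302 at 94.9 per kb and cluster 6 (44.03 to 45.58 Mb, 17 of 24 listed) by ZNF428. Neighbouring listed members of a cluster were nearer to each other in level than other pairs. Their median absolute difference was 0.92 on the log2 scale over 161 pairs, against 1.27 over all 2176 pairs within a cluster and 1.27 over 13400 pairs from different clusters. Of the 179 listed members 82 overlap another annotated gene on the same strand, 42 of them a protein-coding one, and the sources used here do not give the strand setting of the count, so reads shared between neighbours may take part in this. Neighbours can also be alike in GC content and in whether the box was found. ZNF628, ZNF579 and ZNF524, which follow each other in cluster 8, had 70.8%, 66.0% and 69.1% GC and no box found. The part of neither was tested.

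**Figure D3:**
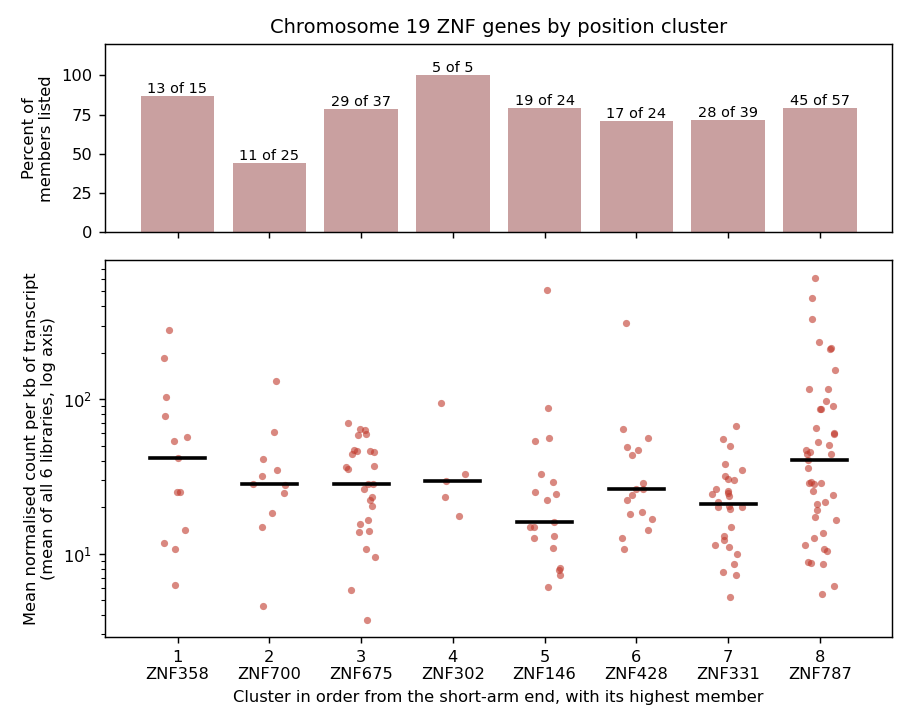
Percent of annotated members listed (upper panel) and mean normalised count per kb of transcript of each listed member (lower panel, log axis, mean of all 6 libraries) in the 8 position clusters, in order along the chromosome and named with the member of highest level per kb of canonical transcript. Black bars are medians. Cluster 2 has the lowest share listed (11 of 25), and clusters 1, 5, 6 and 8 each have members far above their medians.

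A short sequence was more frequent in promoters of the members than in those of other genes, although most members lacked it. Windows of 250 bases before to 50 bases after the start of transcription, from RefSeq on GRCh38.p14, were found for 210 members, 161 of them listed. The letters CCGGAAG, the core bound by transcription factors of the ETS family, were present on either strand in 48.4% of windows of listed members (78 of 161), 30.6% of members not listed (15 of 49) and 14% of all other protein-coding genes (2115 of 15108). Other listed protein-coding genes had them in 19.9% of windows. With genes counted whether listed or not, the share was 44.3% in all members (93 of 210) and 37.1% in ZNF genes of other chromosomes. It was 13.5% in other chromosome 19 genes, counted in the same way. In 79 of the 93 member windows with these letters their centre lay within 50 bases of the start.

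The windows of ZNF91, ZNF675 and ZNF787 are shown, with the letters in capitals, because the first pair come from the same cluster and the last is the highest member.
ZNF91 (chr19:23395422-23395721, GRCh38.p14, minus strand): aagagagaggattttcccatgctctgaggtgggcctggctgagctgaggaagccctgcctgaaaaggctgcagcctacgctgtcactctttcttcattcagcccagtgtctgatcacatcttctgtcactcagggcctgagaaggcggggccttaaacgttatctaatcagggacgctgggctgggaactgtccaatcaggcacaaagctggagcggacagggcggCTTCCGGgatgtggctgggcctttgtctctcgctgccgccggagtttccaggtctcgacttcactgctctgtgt
ZNF675 (chr19:23687163-23687462, GRCh38.p14, minus strand): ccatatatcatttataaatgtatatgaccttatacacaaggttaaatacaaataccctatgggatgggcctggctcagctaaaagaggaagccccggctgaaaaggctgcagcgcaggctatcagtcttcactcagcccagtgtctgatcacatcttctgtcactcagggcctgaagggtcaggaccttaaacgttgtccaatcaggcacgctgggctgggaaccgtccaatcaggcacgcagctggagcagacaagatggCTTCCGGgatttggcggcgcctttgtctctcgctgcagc
ZNF787 (chr19:56121246-56121545, GRCh38.p14, minus strand): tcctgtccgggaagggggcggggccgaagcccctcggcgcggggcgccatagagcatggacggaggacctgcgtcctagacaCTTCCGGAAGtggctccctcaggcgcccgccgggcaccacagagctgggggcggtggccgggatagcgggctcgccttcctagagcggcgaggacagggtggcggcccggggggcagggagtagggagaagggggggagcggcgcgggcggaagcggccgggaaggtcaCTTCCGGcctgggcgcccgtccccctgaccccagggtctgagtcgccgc
The longest stretch that the windows of ZNF91 and ZNF675 share is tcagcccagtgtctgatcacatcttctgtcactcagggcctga, 43 bases. The form ggCTTCCGGgat, found in both, was present in 14 of 29 windows of cluster 3 and 9 of 15108 windows of other protein-coding genes. It is the stretch around the letters common to the windows of ZNF91 and ZNF675, which are counted among the 14. Because the form was picked from this cluster, the counts only describe it.

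The letters were unevenly spread over the clusters. They were present in 21 of 29 windows in cluster 3, 20 of 32 in cluster 7 and 31 of 52 in cluster 8, but in 2 of 24 in cluster 2 and 5 of 23 in cluster 5. Cluster 2 also had the lowest share of members listed among the 8 clusters, but the other clusters were mixed. Cluster 1 had the letters in 4 of 14 windows and 86.7% of its members listed, and cluster 7 had 71.8% listed. In cluster 4 both shares were high, with the letters in 3 of 4 windows and 100% listed. Whether the shares go together was not tested. Among listed members the median level was 25.2 per kb for 77 with the letters and 28.7 per kb for 82 without them, with quartiles of 14.9 and 47.2 per kb in members with the letters and 14.4 and 56.9 per kb in those without. Members copied from one another share their promoters, so the windows are not independent, and a match of letters does not show that a factor binds there.

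**Figure D4:**
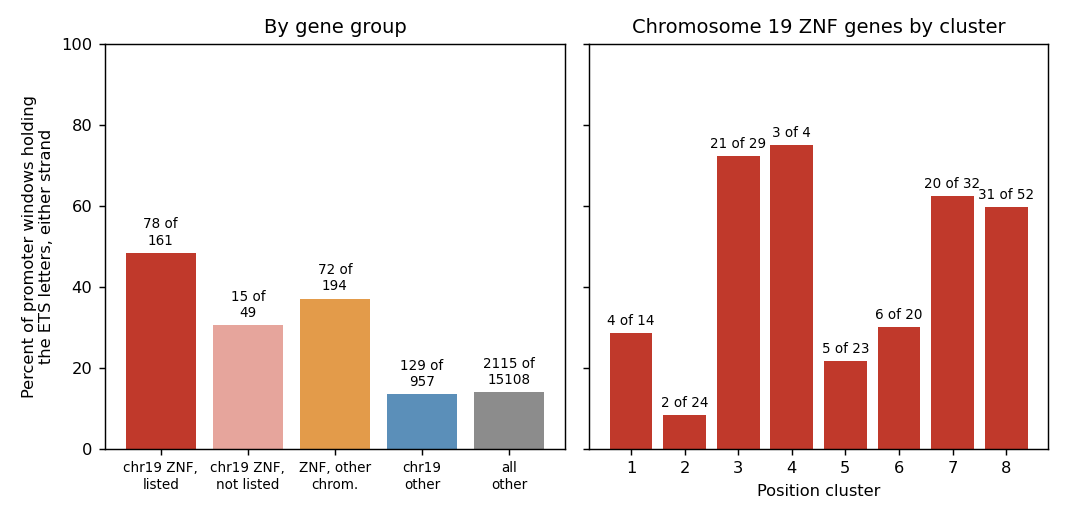
Percent of promoter windows (vertical axis) that hold the ETS letters on either strand, by gene group (left panel) and by position cluster of the chromosome 19 ZNF genes (right panel), with the counts above each bar. Listed chromosome 19 ZNF genes reach 48.4%, against 19.9% of other listed protein-coding genes (not drawn). Listed or not, chromosome 19 ZNF genes reach 44.3% (not drawn as 1 bar), against 37.1% of ZNF genes of other chromosomes and 14% of all other protein-coding genes. Cluster 2 has the lowest share of the 8 clusters.

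The other motifs searched, on both strands, are set against the windows of other listed protein-coding genes. CCGGAAGT, a longer ETS form that contains the one above, was present in 21.1% of windows of listed members and 9.19% of the others. TATAAA, the TATA box, was present in 1.86% of windows of listed members (3 of 161) and 4.91% of the others. For GGGCGG, bound by SP factors, the shares were 68.3% in listed members and 71.9% in the others. GCCATNTT, bound by YY1, was present in 13.7% of windows of listed members and 10.5% of the others. GCATGCGC, bound by NRF1, was present in 2.48% of windows of listed members (4 of 161) and 5.82% of the others. The CRE letters TGACGTCA were present in 4.35% of windows of listed members and 3.40% of the others, and the palindromic ZBTB33 motif in 1.24% of windows of listed members and 0.985% of the others. The median window of a listed member held 21 CG pairs, against 27 in other listed protein-coding genes and 22 in all other protein-coding genes, and in cluster 3 the median was 10.

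Close copies limit what a count can say about a single member. The share of a transcript's 50-base stretches, taken from each base, that also occur in another, non-overlapping gene was read. Its median was 1.14% over 177 listed members, and it was 0 in 50 of them and at least 10% in 13. The highest among listed members was 36.1% for ZNF417 (23.8 per kb), whose closest copy is ZNF587, itself at 24.6% and 96.7 per kb. The sources used here do not say how reads with several matching places were counted, so the split between this pair is uncertain. Of the 10 highest and 10 lowest members, only ZNF66, at 19.2%, had a share of 10% or more.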

How the data were processed

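The authors sequenced strand-marked poly(A) libraries of SK-MEL-28 cells (3 siDANCR, 3 control). Per the submitters' processing notes, Trim Galore 0.4.4, Bowtie 1.1.2, hg19 and DESeq2 were used. The sources used here name neither the gene annotation nor the counting tool. The deposited signal is the authors' mean normalised count per gene, scaled for depth and averaged over all 6 libraries. The depth of each library is therefore unknown here. The table also holds the authors' fold changes of siDANCR against control with their errors, statistics, p-values and adjusted p-values; these 5 columns, and a smaller sheet picked on them, were not used. The planned edgeR test could not be run without values per library.

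IDs were matched without version to GENCODE 44 lifted to GRCh37 (13161 of 13449 matched). Levels are means per 1000 bases of the Ensembl canonical transcript. A canonical coding sequence could be translated for 236 of 240 members, and fingers (C, 2 to 4 residues, C, 12 residues, H, 3 to 5 residues, H) were counted without overlap. For genes with several RefSeq promoters the first entry was used. A set of 8 motifs was searched (ETS in a short and a longer form, SP, TATA, YY1, NRF1, ZBTB33 and CRE). Python 3.11.15, pandas 2.3.3, numpy 2.4.6, scipy 1.17.1 and matplotlib 3.10.9 were used, and the motif and word searches were tested on simulated data.

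Named members are the 10 highest and 10 lowest per kb, the highest of each larger cluster, those with most and fewest fingers, and a list of described members. ZNF43, ZNF714, ZNF417, ZNF587 and the members of cluster 2 that were not listed were named after their values were seen. The members and lists were chosen with earlier results of these data known, and the promoter and word searches were chosen after the data were examined.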

Additional observations from a re-analysis of the deposited data

How the results depend on the processing

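No paired analysis was possible because the deposited values used here are a single mean over all 6 libraries. For the same reason the edgeR and DESeq2 fits, size factors and the omission of single libraries could not be run. The share of members below the median of other listed protein-coding genes was 92.7%. It lay between 88.3% and 92.1% in 6 alternatives (no division by length, longest transcript, means of at least 50 or 100, same GC bin, without members that share 10% or more of their 50-base stretches). It was 99.2% for members with a KRAB box alone, an alternative added after seeing the data. The share of members listed, 74.6%, became 60.4% when a mean of at least 50 was asked for, by construction. The number of listed members was 184 with other zinc finger symbols and 179 with any biotype. The KRAB box was found in 121 to 133 listed members over 3 spellings, the last added after seeing the data. The median of 12 fingers and the GC content did not move, and a gap of 0.5 Mb gave 20 clusters in place of 16. Precision per member is unknown, since no spread between libraries could be computed.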

Other observations

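Other zinc finger symbols on chromosome 19 added 5 listed genes. ZFP36, which encodes an RNA-binding protein with a different kind of finger, stood at 99 per kb and ZSCAN22 at 92.3 per kb. ZFP30 stood at 26.8 per kb, ZFP14 at 10.7 per kb and ZFP82 at 10.0 per kb, in the range of the neighbouring ZNF members.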
